A study of Mus musculus with 3 samples.

Results

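Neuregulins are EGF-like growth factors that are carried or shed by axons and other cells and act on the ErbB family of receptor tyrosine kinases. In peripheral nerve, axonal neuregulin 1 (Nrg1) acts on a pair of receptors in Schwann cells. ErbB3 (Erbb3) binds the ligand but has little kinase activity of its own, and ErbB2 (Erbb2) has the kinase but no known ligand. ErbB4 (Erbb4) both binds neuregulins and signals by itself, whereas the EGF receptor (Egfr) binds EGF and its relatives rather than neuregulins. The 8 genes described here are the ligands Nrg1, Nrg2, Nrg3 and Nrg4 and the receptors Egfr, Erbb2, Erbb3 and Erbb4, taken by symbol from the 32227 genes in the deposited matrices.

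The study compared lumbar dorsal root ganglia (DRG), which hold the cell bodies of sensory neurons, from untreated wild-type C57BL/6 mice of 2 ages. Nuclei were captured by PIP-seq, a droplet method that uses particles as templates and tags every transcript with a unique molecular identifier (UMI). Adult mice of 3 months gave 1 library and aged mice of 21 months gave 2, with the sex given as male for all in the sample labels, whereas the methods of the study list aged mice as female. The series text states a lower age for the aged mice, and the age of the sample labels is used here. How many mice went into a library is not stated, so that libraries, not mice, are the units of the p-values below. Those between classes or subtypes measure how a difference varies over the same libraries, with the level of each library taken out. Those for age within a class rest on the spread of the aged pair, with information on spread shared over all genes in the fit. With 1 adult library age and library cannot be told apart.

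The libraries held 167664164, 95647106 and 69045987 UMIs (adult replicate 1, aged replicate 1 and aged replicate 2, the order used for values of the libraries throughout), and 11518, 5130 and 2611 nuclei had more than 1000 genes. Xist, the transcript of the inactive X chromosome in females, stood at 1414, 844 and 929 CPM (the UMIs of a gene over all UMIs, scaled to 1000000) in nuclei, while the Y-linked genes Ddx3y, Uty and Kdm5d stood at 20.6, 2.73 and 1.01 CPM or less. These levels go against the label male in all 3 libraries alike. Clusters named from marker genes gave 9 cell classes that held at least 20 nuclei of every library, and a nucleus is called like the type its cluster was named for: neurons, satellite glial cells (SGC, the glia that wrap neuronal somas), non-myelinating and myelinating Schwann cells (NMSC and MSC), fibroblasts, endothelial cells, myeloid cells, B lymphocytes and T lymphocytes. Of the marker lists, 4 of 8 SGC markers and 5 of 7 NMSC markers were highest in their own class, and for the other 7 classes all markers were. Of the 4875 SGC-like nuclei, a gate on markers nucleus by nucleus called 245 SGC, 229 NMSC and 143 neurons and left 4257 without a name. Free RNA, taken from barcodes of 100 UMIs or fewer, held Nrg3 at 1277, 1080 and 1069 and Nrg1 at 494, 507 and 496 CPM, so that a low level of these genes outside neurons is not read as expression.

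Values below are in CPM of a class in a library. In such sums fewer cells of a kind and less RNA per cell cannot be told apart. Levels are compared between classes within a gene, not between genes, since the genes differ in length. Nrg1 (chr8:31814551-32884029), Nrg3 (chr14:38368952-39473088) and Erbb4 (chr1:68032186-69108059), all on the minus strand of GRCm38, span 1069, 1104 and 1076 kb. Nrg2 (minus strand, 180 kb) and Nrg4 (chr9:55220222-55326844, minus strand, 107 kb) are shorter. Egfr (chr11:16752203-16918158, plus strand) spans 166 kb, Erbb2 (chr11:98412470-98437716, plus strand) 25.2 kb and Erbb3 (chr10:128567523-128589652, minus strand) 22.1 kb. Kept nuclei held between 1150 UMIs of Erbb2 and 413722 of Nrg3, with 166477 of Nrg1, 25608 of Nrg2, 7508 of Erbb3, 6311 of Egfr, 6306 of Erbb4 and 4532 of Nrg4.

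RefSeq promoters (GRCm38.p6) were matched for 5 of the 8 genes. Those of 3 receptors whose mean level was highest in different classes are shown, so that the genes can be compared, though the NMSC and MSC ranges of Erbb2 overlapped. Each is given 5′ to 3′ on the strand of its gene as the 250 bases before the start, with CG dinucleotides in capitals. They lie at chr11:16751953-16752202 (Egfr), chr11:98412234-98412483 (Erbb2) and chr1:69108060-69108309 (Erbb4, minus strand).
Egfr: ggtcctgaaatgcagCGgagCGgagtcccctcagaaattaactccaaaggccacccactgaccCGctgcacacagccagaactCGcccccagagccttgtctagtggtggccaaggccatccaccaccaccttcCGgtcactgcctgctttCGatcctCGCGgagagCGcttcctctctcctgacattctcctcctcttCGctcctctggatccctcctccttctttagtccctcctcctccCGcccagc
Erbb2: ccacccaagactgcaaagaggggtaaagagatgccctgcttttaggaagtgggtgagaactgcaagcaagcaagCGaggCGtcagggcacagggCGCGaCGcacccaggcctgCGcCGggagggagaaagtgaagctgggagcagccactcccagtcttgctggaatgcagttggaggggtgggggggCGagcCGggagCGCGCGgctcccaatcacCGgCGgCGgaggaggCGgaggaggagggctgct
Erbb4: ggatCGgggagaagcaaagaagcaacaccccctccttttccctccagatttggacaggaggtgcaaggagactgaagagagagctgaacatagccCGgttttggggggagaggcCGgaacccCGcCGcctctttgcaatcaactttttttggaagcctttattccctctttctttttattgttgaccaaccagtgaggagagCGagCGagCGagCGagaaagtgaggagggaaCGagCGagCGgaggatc
The promoters held 11 (Egfr), 16 (Erbb2) and 12 (Erbb4) CG dinucleotides, against a median of 6 over 32851 promoters. The GC box GGGCGG, on either strand, was found once, in Egfr, and lies in 32.7% of all promoters. The SOX-type word ACAAAG (16.5% of all promoters) and the TATA word TATAAA (12.4%) were in none of the 3.

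To ask which cells carry ligands and receptors, each class was compared with the mean of the other classes by the quasi-likelihood test of edgeR on sums per library, with the library as a block. All 4 neuregulins were higher in neurons, and the receptors were split among glia and fibroblasts. Of 72 member tests over the 9 classes, 35 passed an adjusted p under 0.05, 17 higher and 18 lower, where 28.6% of all gene tests passed. One of the 35, Nrg4 in T lymphocyte-like nuclei, had no UMI in any library (which allows a level of up to 6.98 CPM over the 3), so that its fitted value is given no weight.

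**Figure D1:**
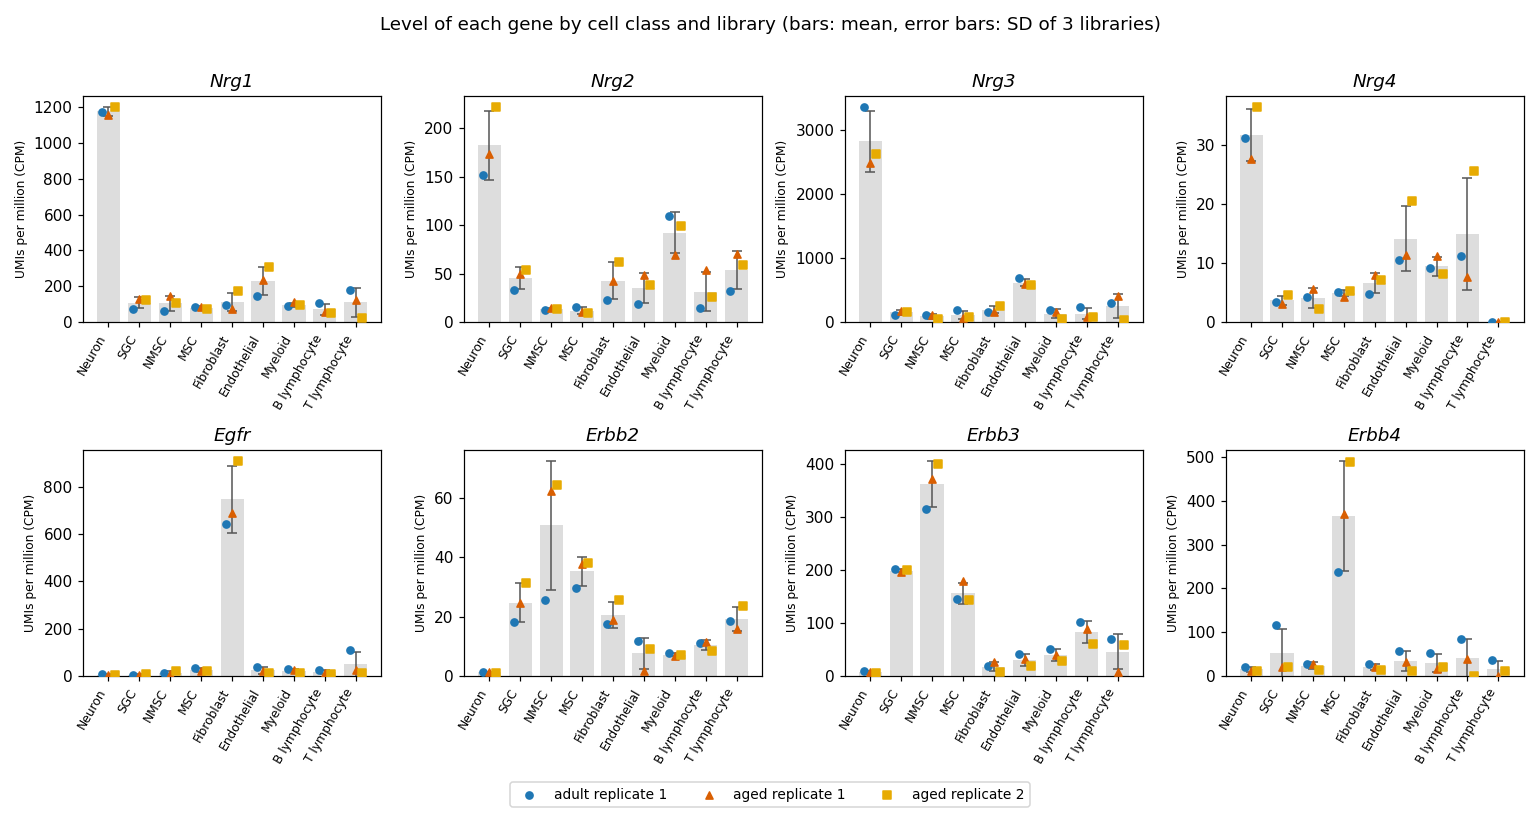
Levels of the 8 genes (CPM, linear axes that start at 0 and differ between panels) in 9 cell classes; bars give the mean and error bars the SD of 3 libraries, and points the libraries. The neuregulins stand highest in neurons, Egfr in fibroblasts (747 CPM), Erbb2 and Erbb3 in NMSC, and Erbb4 in MSC (365 CPM).

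Nrg1, the axonal ligand for Schwann cells, stood at 1171, 1154 and 1199 CPM in neuron-like nuclei. The next class, endothelial-like nuclei, held 147, 232 and 306 CPM, and no library of any other class came near the neurons. The mean in neurons was 1175 ± 22.9 CPM (SD, n = 3), 12.4-fold above the other classes in the fit (log2 difference 3.63, SE 0.19, edgeR adjusted p = 5.28e-14). Of the Nrg1 UMIs of named nuclei, 97.2% ± 0.71 lay in neurons. Neurons held most UMIs of any kind, at 67297719 of 90262403, 40415103 of 55861239 and 30027169 of 37627449 in the kept nuclei. From the endothelial-like to the NMSC-like class, neighbours in the order of levels overlapped between libraries and did not differ beyond their spread.

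Nrg3, a ligand of ErbB4, stood at 3362, 2489 and 2622 CPM in neurons, with 98.2% ± 0.62 of its UMIs there. The log2 difference from the other classes was 4.25 (SE 0.24, edgeR adjusted p = 1.27e-13). Endothelial-like nuclei came second with 683, 594 and 574 CPM, clear of the third class, and passed the test (log2 difference 1.58, SE 0.29, edgeR adjusted p = 1.40e-04). That level lay below the Nrg3 of free RNA, and the 9 neuron markers summed to 2556, 2644 and 2003 CPM in the endothelial-like class. In nuclei gated one by one on markers the difference was reversed (log2 -1.35 in 70, 72 and 33 endothelial nuclei). The gate left too few SGC, myeloid cells and lymphocytes to fit. Its mean of the other classes therefore covers fewer classes, and neurons weigh more in it. The part of this in the reversal was not tested. With free RNA subtracted the endothelial difference passed (log2 8.51, edgeR adjusted p = 3.34e-03), and in nuclei thinned to 1000 UMIs it did not (log2 0.67). Endothelial-like Nrg1 (log2 0.73, SE 0.25) and Nrg4 (log2 1.80, SE 0.48) passed as well, and were reversed by the same gate. Neither passed with free RNA subtracted or when 1 aged library, either of them, was left out.

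Nrg2 stood at 152, 174 and 222 CPM in neurons and at 109, 69.3 and 98.7 CPM in myeloid-like nuclei, the ganglion's macrophages and their relatives. Both classes passed, with log2 differences of 2.67 (SE 0.17, edgeR adjusted p = 7.96e-13) and 1.24 (SE 0.22, edgeR adjusted p = 5.17e-05). The neuron values were all above the myeloid ones. The myeloid difference also passed in each of 12 alternatives in which it was tested, free RNA subtracted among them (mean 95.5 CPM after subtraction), whereas Nrg2 of the free RNA itself stood at 79.7, 67.1 and 71.8 CPM.

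Nrg4, another ErbB4 ligand, was a low transcript in every class. It reached 31.1, 27.5 and 36.3 CPM in neurons, where the log2 difference was 3.41 (SE 0.22, edgeR adjusted p = 6.07e-12). All other library values lay below these 3, at 25.5 CPM or less, and rested on 45 UMIs or fewer in any library.

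Egfr stood at 641, 690 and 910 CPM in fibroblast-like nuclei, which held 81.2% ± 4.29 of its UMIs. Every library of every other class was at 110 CPM or less. The log2 difference was 5.53 (SE 0.17, edgeR adjusted p = 3.02e-18), the greatest of the 72 in size apart from the T lymphocyte value without UMIs. Among the 4 fibroblast-like clusters, the one led by Ranbp3l held 222, 183 and 204 CPM of Egfr, while the one that carried Pdgfra and Lum held 921, 899 and 1415 CPM. Neurons (6.08, 5.47 and 3.36 CPM) and SGC (5.14, 4.15 and 6.62 CPM) held the lowest levels, overlapped each other, and were both lower than the other classes (log2 differences -2.36, SE 0.26, and -2.37, SE 0.30). In both, Egfr was at 0 once free RNA had been subtracted.

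Erbb3, the neuregulin-binding partner in the Schwann cell receptor, was highest in the glia. NMSC-like nuclei held 314, 372 and 399 CPM, SGC-like nuclei 201, 195 and 199 CPM, and MSC-like nuclei 146, 179 and 143 CPM. None of these ranges overlapped, and each class passed against the mean of the others, with log2 differences of 3.06 (SE 0.17), 2.23 (SE 0.16) and 1.70 (SE 0.17; edgeR adjusted p = 6.14e-13, 4.51e-11 and 1.25e-08). The SGC-like level averages over unlike clusters. The one led by Lgr5 held 272, 287 and 390 CPM, which overlapped NMSC, and the one led by Apoe 147, 110 and 132 CPM, which overlapped MSC. Those led by Shank2 (195, 219 and 198 CPM) and Gm4951 (241, 231 and 190 CPM) lay between. Neurons held 8.50, 7.60 and 5.46 CPM, below the 27.5, 26.1 and 21.0 CPM of free RNA.

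Erbb2, the kinase partner, followed the same 3 classes at lower counts. It stood at 25.6, 62.3 and 64.2 CPM in NMSC, 29.6, 37.9 and 38.2 CPM in MSC and 18.0, 24.7 and 31.4 CPM in SGC, and these ranges overlapped. The log2 differences from the other classes were 2.25 (SE 0.25), 1.68 (SE 0.21) and 1.19 (SE 0.20), all past the threshold. Fibroblast-like nuclei, at 17.3, 18.7 and 25.5 CPM, also passed (log2 0.62, SE 0.23, edgeR adjusted p = 0.0401), though not without either aged library. Neurons stood at 1.19, 1.41 and 1.10 CPM, the lowest of all classes in every library.

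Erbb4 was set apart from the other receptors by its level in MSC-like nuclei, at 237, 369 and 489 CPM. Every other class lay below these values in every library, at 115 CPM or less. The log2 difference was 4.10 (SE 0.28, edgeR adjusted p = 7.29e-12). SGC-like nuclei held 115, 20.9 and 20.6 CPM, the adult library far above both aged ones, so that the class as a whole (52.3 ± 54.7 CPM, SD, n = 3) overlapped the classes below it and did not pass.

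The glial classes were then compared in pairs, since they are the cells in which ErbB receptors are known to act in ganglia and nerve. Of 24 member tests 8 passed, where 17.5% of all gene tests did. Erbb4 was 17.7-fold lower in NMSC than in MSC (log2 difference -4.15, SE 0.54, edgeR adjusted p = 2.81e-06) and 8.66-fold lower in SGC than in MSC (log2 -3.11, SE 0.44, edgeR adjusted p = 3.65e-06). The latter fold averages over unlike libraries, since MSC held 2.05-fold the SGC level in the adult library and 17.7-fold and 23.8-fold in the aged ones. Erbb3 was 2.31-fold higher in NMSC than in MSC (log2 1.21, SE 0.24, edgeR adjusted p = 6.93e-04), and lower in SGC than in NMSC (log2 -0.73, SE 0.24, edgeR adjusted p = 0.0416). Erbb2 was lower in SGC than in NMSC (log2 -0.94, SE 0.28, edgeR adjusted p = 0.0246). The last 2 differences did not pass without aged replicate 1 or without aged replicate 2. Without aged replicate 2, the difference of Nrg2 between SGC and NMSC, given next, did not pass either (edgeR adjusted p = 0.0522).

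SGC and MSC did not differ past the threshold in Erbb2 (log2 -0.43, SE 0.25) or Erbb3 (log2 0.48, SE 0.23). Among the ligands, Nrg2 was higher in SGC (33.2, 49.3 and 54.0 CPM) than in MSC (15.8, 10.5 and 9.55 CPM), with no overlap (log2 1.94, SE 0.31, edgeR adjusted p = 2.33e-05), and than in NMSC (log2 1.84, SE 0.39, edgeR adjusted p = 1.61e-03). All 3 classes lay below the 79.7, 67.1 and 71.8 CPM of free RNA, and with free RNA subtracted the difference from MSC passed and that from NMSC did not (edgeR adjusted p = 6.04e-03 and 0.0597). Egfr was lower in SGC than in MSC (log2 -2.18, SE 0.37, edgeR adjusted p = 4.19e-05). In MSC it stood at 33.7, 21.5 and 19.1 CPM, below the 44.7, 31.2 and 24.5 CPM of free RNA in every library. Its difference in MSC from the mean of the other classes did not pass (log2 0.088). In nuclei gated on markers that difference was -1.51, against a mean over fewer classes. With free RNA subtracted 4 of the 8 pair differences passed, those of Erbb4 and those of Nrg2 and Egfr between SGC and MSC. No pair differed past the threshold in Nrg1, Nrg3 or Nrg4.

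**Figure D2:**
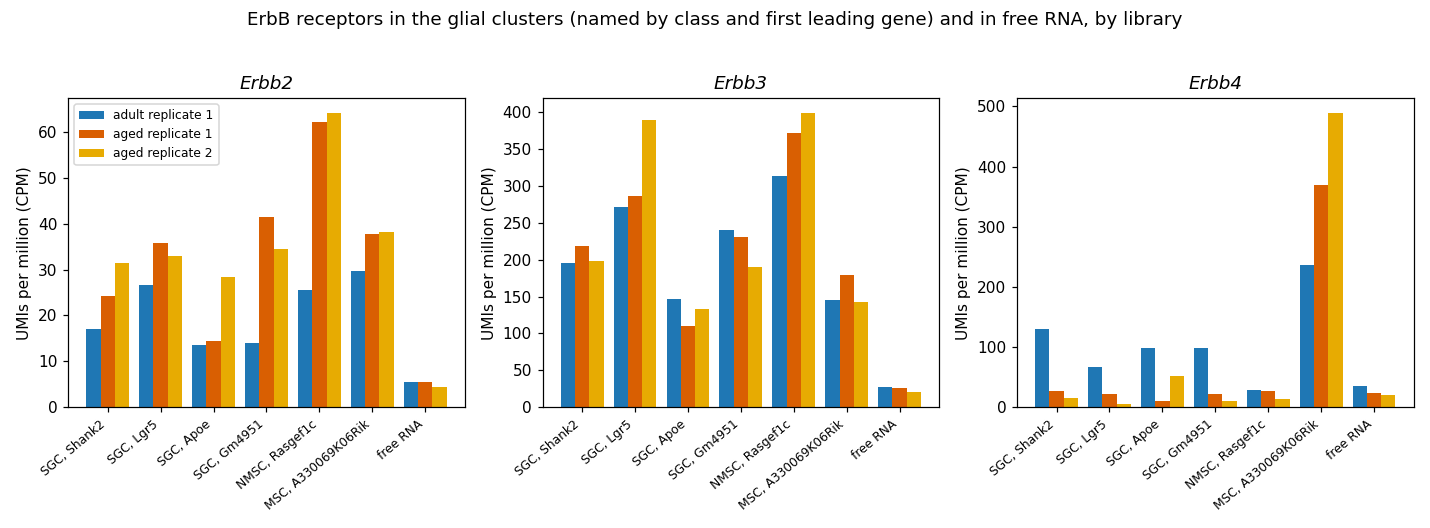
Erbb2, Erbb3 and Erbb4 (CPM, 1 bar per library, no error bars) in the 6 glial clusters, named by class and leading gene, and in free RNA. Erbb3 is above its free RNA level in every cluster and library, while Erbb4 in the SGC clusters is higher in the adult library than in either aged library.

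Within the neurons, levels were compared over 7 subtypes named from markers: large-fiber neurons, A-delta peptidergic neurons, Th low-threshold mechanoreceptors, Trpm8 cold-sensing neurons, peptidergic nociceptors, Mrgprd non-peptidergic nociceptors, and itch neurons marked by Sst and Nppb. The subtypes join unlike clusters. The Mrgprd subtype includes a cluster led by Mrgpra3 (561, 202 and 130 nuclei). The large-fiber subtype includes one led by Zfp804b and Kcnh5 that met 3 large-fiber markers (499, 232 and 92 nuclei). Among the ligands 17 of 28 tests passed the threshold, and among the receptors 2 of 28 did. Over both, 19 of 56 passed, against 34.5% of all gene tests. In neurons the receptors held from 170 (Erbb2) to 2236 UMIs (Erbb4), and the ligands from 4295 (Nrg4) to 405579 (Nrg3). The part of these low receptor counts in the contrast was not tested. The few receptor tests that passed are therefore not read as receptor levels alike between subtypes.

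Nrg1 was highest in Mrgprd non-peptidergic neurons (1607, 1723 and 1826 CPM) and large-fiber neurons (1781, 1216 and 1394 CPM), which overlapped each other. Both were above the mean of the other subtypes, with log2 differences of 1.36 (SE 0.18, edgeR adjusted p = 2.36e-06) and 1.04 (SE 0.18, edgeR adjusted p = 6.89e-05). Among the large-fiber clusters the level ranged from 3171, 2550 and 2739 CPM in one with a usual share of Malat1, a transcript retained in the nucleus, to 322, 324 and 280 CPM in a cluster of little Malat1. Sst and Nppb neurons (351, 308 and 505 CPM) and peptidergic neurons (506, 508 and 600 CPM) were lower (log2 -1.31, SE 0.23, and -0.70, SE 0.21). Without the adult library the large-fiber difference was 0.68 and passed, and without aged replicate 1 the peptidergic one did not pass.

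Nrg3 was lowest in Sst and Nppb neurons. These held 488, 81.7 and 28.5 CPM, where the A-delta peptidergic neurons held 4759, 3145 and 3431 CPM and each of the 5 other subtypes held 1103 CPM or more in every library. The log2 difference was -3.95 (SE 0.40, edgeR adjusted p = 1.08e-07), or 15.5-fold lower, and passed in all 11 alternatives. The values of the Sst and Nppb class lay below the Nrg3 of free RNA in every library. Th neurons came next from below, at 1149, 1112 and 1103 CPM, clear of both neighbours, although their difference from the mean (log2 -0.66, SE 0.30) did not pass. Of the higher 5 subtypes, A-delta peptidergic (log2 1.34, SE 0.25), Mrgprd (log2 1.02, SE 0.26), Trpm8 (log2 0.92, SE 0.26) and large-fiber neurons (log2 0.75, SE 0.26) passed, and neighbours in the order overlapped. Without aged replicate 1 the last 3 did not pass (edgeR adjusted p = 0.0748, 0.190 and 0.181), and the large-fiber difference did not pass on thinning to 1000 UMIs (log2 0.27) or by DESeq2 (adjusted p = 0.113) either. It also did not pass with the members kept in the clustering (log2 0.36, edgeR adjusted p = 0.288) or with free RNA subtracted (edgeR adjusted p = 0.0716). The Trpm8 difference did not pass by DESeq2 (adjusted p = 0.0648) or with free RNA subtracted (edgeR adjusted p = 0.0721).

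Nrg2 took the reverse place. It was highest in Sst and Nppb neurons, at 271, 346 and 495 CPM, above every value of the other subtypes (log2 1.08, SE 0.13, edgeR adjusted p = 9.32e-07). A-delta peptidergic (218, 232 and 248 CPM) and Mrgprd neurons (192, 224 and 270 CPM) followed and passed (log2 0.52, SE 0.12, and 0.44, SE 0.12). Trpm8 (log2 -0.91, SE 0.15) and large-fiber neurons (log2 -0.73, SE 0.13) were lower. The large-fiber value was -0.28 and did not pass without the clusters of little Malat1, and was -1.66 and passed with the members kept in the clustering.

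Nrg4 was highest in large-fiber (49.9, 40.7 and 54.5 CPM) and A-delta peptidergic neurons (43.2, 31.3 and 49.3 CPM), and the other 5 subtypes held 25.7 CPM or less in every library. The log2 differences were 1.32 (SE 0.14, edgeR adjusted p = 6.35e-08) and 1.15 (SE 0.15, edgeR adjusted p = 2.07e-06). Trpm8 neurons were lower (log2 -1.05, SE 0.24), though not past the threshold without aged replicate 2.

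Of the receptors in neurons, Egfr passed in Th neurons, at 7.70, 22.5 and 12.0 CPM (log2 1.71, SE 0.31, edgeR adjusted p = 1.46e-04), and Erbb2 in Sst and Nppb neurons, where the value rests on 7, 2 and 2 UMIs and did not pass when any 1 of the 3 libraries was left out. Both stood below or near the free RNA level of the gene. With free RNA subtracted per subtype, the Egfr difference passed (log2 6.60, edgeR adjusted p = 2.77e-03) and that of Erbb2 did not (edgeR adjusted p = 0.0563). Erbb3 and Erbb4 differed in no subtype past the threshold (unadjusted p under 0.05 in 0 of 14 tests with edgeR and with DESeq2, and in 1 of 14 with free RNA subtracted), at 14.1 and 25.1 CPM or less.

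**Figure D3:**
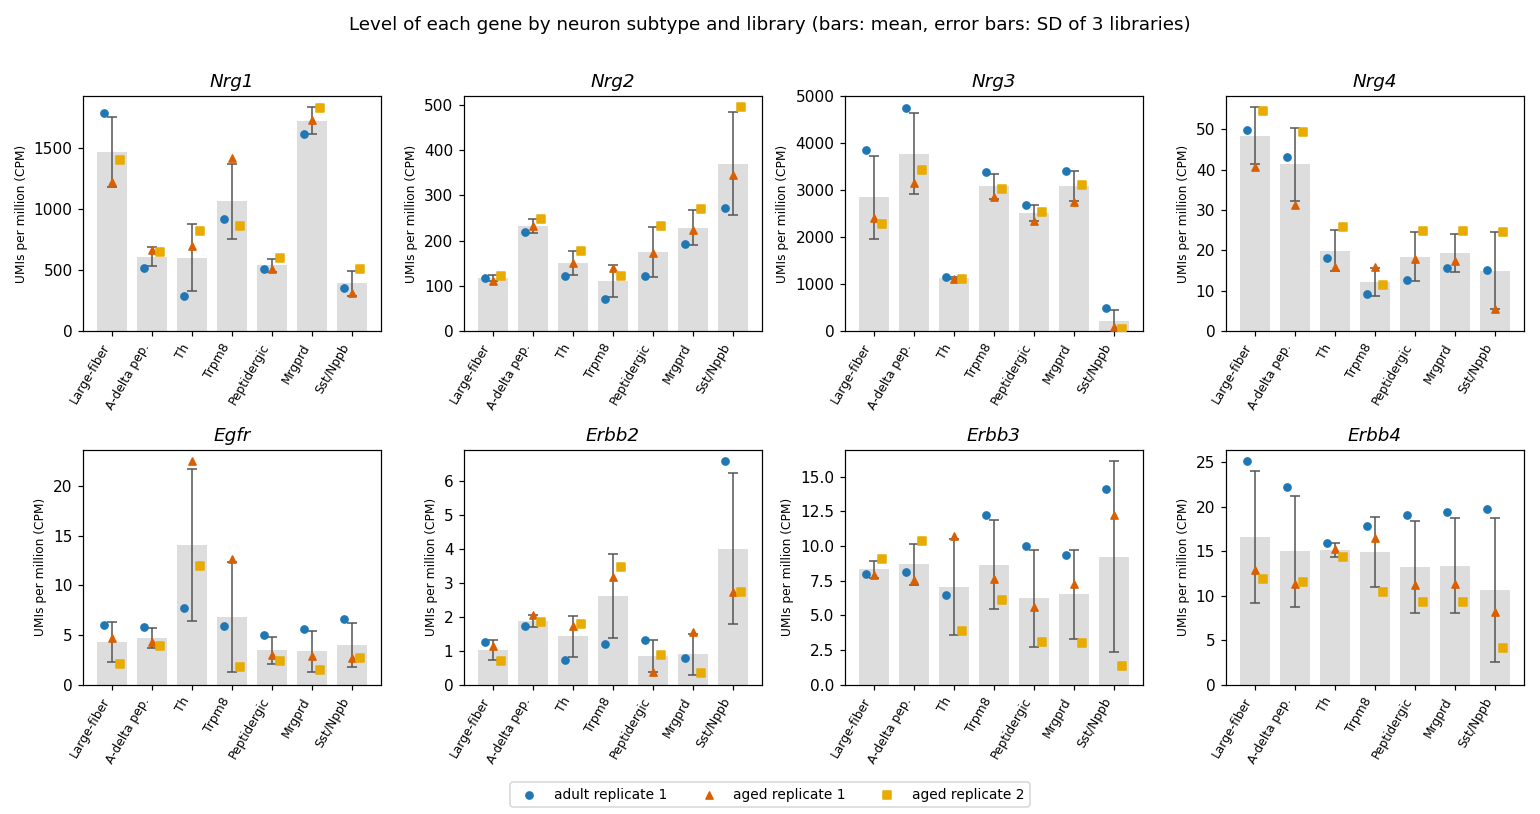
Levels of the 8 genes (CPM, linear axes that start at 0 and differ between panels) in 7 neuron subtypes; bars give the mean and error bars the SD of 3 libraries, and points the libraries. Nrg3 is lowest and Nrg2 highest in Sst and Nppb neurons, and Nrg4 is highest in large-fiber and A-delta peptidergic neurons.

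Genes with the most similar pattern over the 9 classes and 7 subtypes were taken as those with the highest Pearson correlation of the mean log2(CPM + 1), over 16 points that share their libraries, among 14998 genes. For Erbb3 these were Sox10 (r = 0.99), Igsf11 (0.99) and Gpm6b (0.99). For Nrg3 they were Snph (0.98), Gm20642 (0.97) and Cdh18 (0.96), for Nrg1 Scg5, Sox11 and Gm38085 (0.95 each), for Nrg2 Rap1gap2 (0.95), Psmd14 (0.93) and Uba6 (0.93), and for Nrg4 Chpf2 (0.93), Vcpkmt (0.93) and Ubfd1 (0.92). For Egfr they were Gm49394 (0.96), Itgbl1 (0.96) and Zic1 (0.95), for Erbb2 Rftn2 (0.97), Gemin8 (0.96) and Lama2 (0.96), and for Erbb4 Slc9a3 (0.94), A330069K06Rik (0.94) and Gm12068 (0.94).

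The aged libraries were compared with the adult library within each class. Of the libraries only the aged pair informs the spread in this fit (1 residual degree of freedom), so that the lone adult library is taken to vary as much. The fit also shares information on spread over genes, so that a small p does not rest on the pair alone. Over the 9 classes, 7 of 59 member tests passed, 2 higher and 5 lower in aged libraries, where 7.86% of all gene tests passed. Erbb4 made up 4 of the 7, Nrg3 2 and Nrg1 1, and none of the tests of Nrg2, Nrg4, Egfr, Erbb2 or Erbb3 passed in any class (unadjusted p under 0.05 in 7 of 33 with edgeR and in 0 of 33 with DESeq2). With free RNA subtracted, 2 of 22 were under 0.05 unadjusted and 1, Nrg2 in fibroblasts, passed in edgeR (adjusted p = 0.0190).

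**Figure D4:**
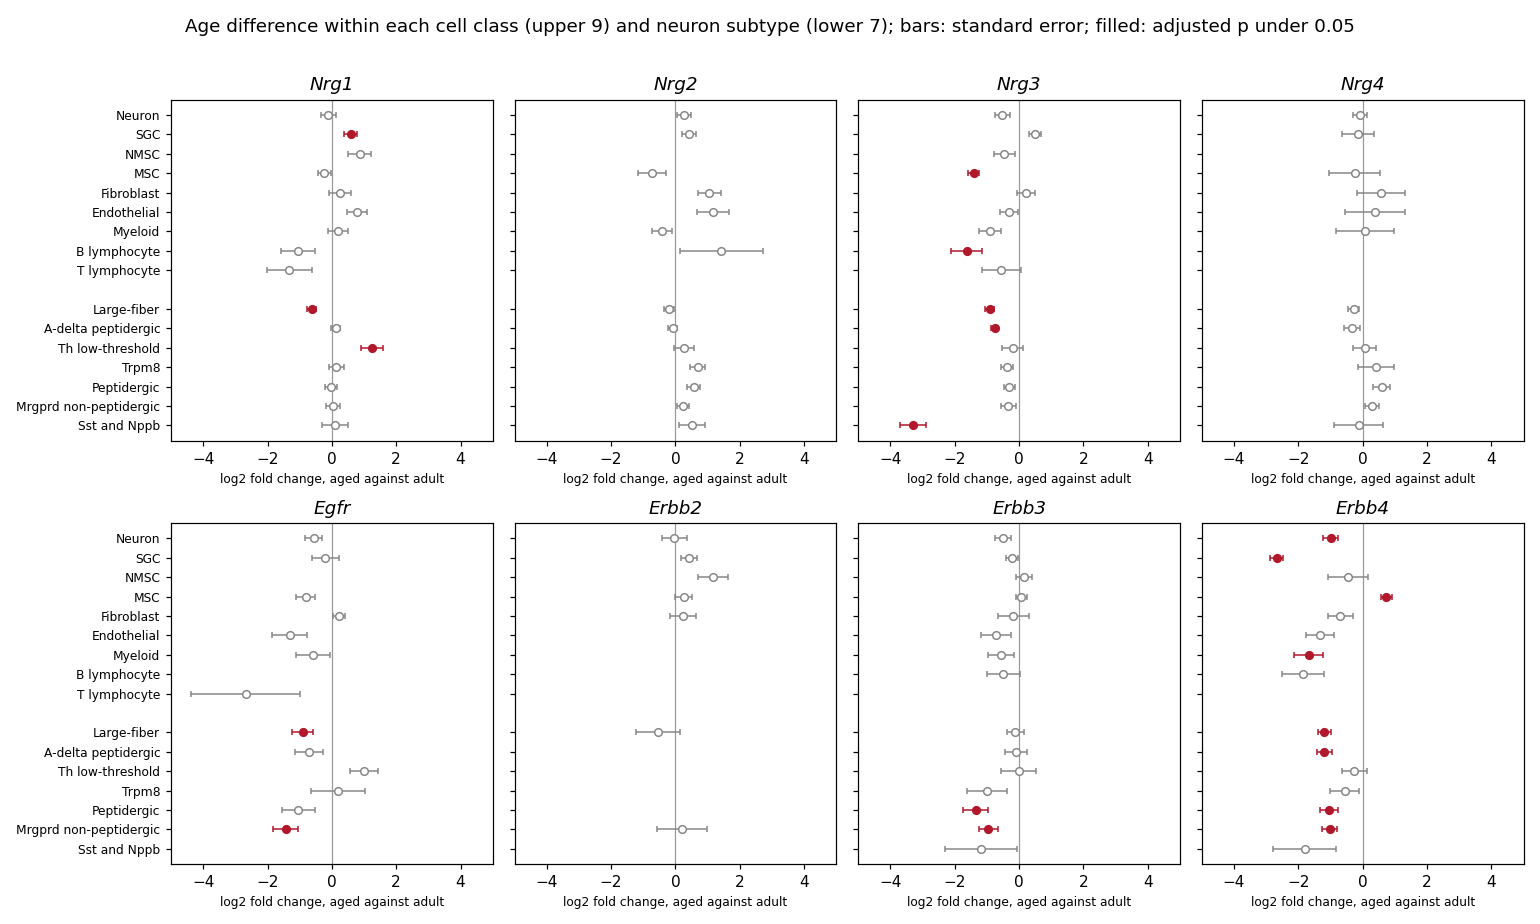
Log2 fold change of aged against adult libraries for each gene in 9 cell classes and 7 neuron subtypes, with the standard error; filled points have an edgeR adjusted p under 0.05, and classes in which a gene did not pass the filter on low counts are left blank. Erbb4 lies at -2.67 in SGC and at 0.73 in MSC.

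Erbb4 fell in aged SGC-like nuclei, from 115 CPM (1505 UMIs in 3851 nuclei) to 20.9 and 20.6 CPM (126 UMIs in 708 nuclei and 59 in 316). The aged values lay close together and far from the adult one. The log2 difference was -2.67 (SE 0.21, edgeR adjusted p = 9.07e-34), a 6.37-fold lower level, and it passed in all 8 alternatives that changed the SGC data or the fit and gave a test, with log2 values from -3.12 to -2.54 over all alternatives. SGC-like nuclei had medians of 3069, 6444 and 7176 UMIs, so that the fold is one of CPM and not of UMIs per nucleus. The 4 SGC-like clusters, which share the same libraries, are given one by one. The cluster led by Shank2 held 130, 26.9 and 15.7 CPM (1181, 81 and 27 UMIs). The one led by Lgr5 held 67.3, 21.9 and 4.70 CPM (131, 11 and 1 UMIs). The one led by Apoe held 97.5, 9.86 and 51.1 CPM (165, 17 and 27 UMIs). The one led by Gm4951 held 97.7, 21.4 and 9.86 CPM (28, 17 and 4 UMIs). In each of the 4, both aged libraries lay below the adult one.

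In free RNA Erbb4 was also higher in the adult library (34.5, 23.8 and 20.6 CPM), and aged SGC stood at about that level. With free RNA subtracted, the log2 difference in SGC was -3.12 and passed. In SGC the 7 MSC markers summed to 712, 564 and 561 CPM and the 7 NMSC markers to 15147, 9823 and 10721 CPM, both highest in the adult library as Erbb4 was. The 9 neuron markers moved the other way (1351, 2681 and 2128 CPM), and the part of these markers in the difference was not tested. Erbb3, by contrast, stood at 201, 195 and 199 CPM in the same nuclei (log2 -0.23, SE 0.19), and Erbb2 at 18.0, 24.7 and 31.4 CPM (log2 0.42, SE 0.24).

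In MSC-like nuclei Erbb4 rose, from 237 CPM (464 UMIs) to 369 and 489 CPM (945 and 461 UMIs). The log2 difference was 0.73 (SE 0.17, edgeR adjusted p = 4.68e-03), and it passed in 4 of the 8 alternatives that changed the MSC data or the fit and gave a test, with values from 0.51 to 0.95 over all alternatives. The summed MSC markers moved the other way in these nuclei, at 36710, 14085 and 13109 CPM, while the 8 myeloid markers rose with Erbb4, at 325, 580 and 570 CPM, and the part of either list in the difference was not tested. Erbb3 (log2 0.07, SE 0.18) and Erbb2 (log2 0.25, SE 0.27) did not pass there.

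To compare the age differences themselves, each class was set against the mean of the others in 1 model with the library as a block. The age difference of Erbb4 in MSC was higher than in the other classes by 2.37 on the log2 scale (SE 0.39, edgeR adjusted p = 0.0308). It was the 1 of 72 member tests to pass, where 0.507% of all gene tests passed. Without aged replicate 1 the value was 3.93 and without aged replicate 2 it was 2.97, with no test. Both are greater than the value from all libraries. The mean of the others weighs each class alike. It includes B and T lymphocyte-like nuclei, with 53, 10 and 0 and with 8, 0 and 1 UMIs of Erbb4. The part of these low counts in the values was not tested. The age difference of Erbb4 in SGC was lower than in the other classes (log2 -1.51, SE 0.55). It had an unadjusted p of 0.0127 and an adjusted p of 0.146 in edgeR, which did not pass. The MSC value was greater but did not pass with free RNA subtracted (log2 3.26, SE 0.93, adjusted p = 0.439 in edgeR) and passed in the 8 other alternatives that gave a test.

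Erbb4 was lower in aged neurons (21.1, 12.2 and 10.8 CPM; log2 -0.99, SE 0.23, edgeR adjusted p = 3.45e-04) and in aged myeloid-like nuclei (53.1, 14.9 and 19.1 CPM; log2 -1.67, SE 0.45, edgeR adjusted p = 0.0105). In neurons the level lay below that of free RNA in each library, and with free RNA subtracted the difference did not pass (log2 -1.14, edgeR adjusted p = 0.140). The MSC markers in neurons summed to 269, 190 and 125 CPM, the NMSC markers to 8603, 6326 and 7071 CPM and the myeloid markers to 82.8, 43.0 and 36.8 CPM, all highest in the adult library, and their part was not tested. In myeloid-like nuclei the adult value rested on 35 UMIs, and the difference passed in 3 of the 6 alternatives that changed these data or the fit. It passed with free RNA subtracted (log2 -2.20) and did not in nuclei of more than 2000 genes (log2 -0.92, edgeR adjusted p = 0.389), with the members kept in the clustering (edgeR adjusted p = 0.0700) or by DESeq2 (adjusted p = 0.753). Free RNA was estimated from markers of other lineages to make up at most 61.5%, 32.5% and 24.0% of the myeloid-like UMIs. In this class the 7 NMSC markers summed to 5276, 1917 and 1396 CPM, the 7 MSC markers to 1405, 713 and 699 CPM and the 8 SGC markers to 1620, 1262 and 831 CPM, all highest in the adult library as Erbb4 was, and their part in the difference was not tested.

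Nrg3 was lower in aged MSC (183, 71.9 and 78.5 CPM; log2 -1.41, SE 0.18, edgeR adjusted p = 3.43e-06) and in aged B lymphocyte-like nuclei (236, 84.2 and 76.6 CPM, on 147, 22 and 9 UMIs; log2 -1.63, SE 0.48, edgeR adjusted p = 0.0373). Nrg1 was higher in aged SGC (73.2, 127 and 124 CPM; log2 0.58, SE 0.20, edgeR adjusted p = 0.0226). All 3 levels lay below those of free RNA, and were at 0 once it was subtracted. The 9 neuron markers in SGC summed to 1351, 2681 and 2128 CPM, higher in both aged libraries as Nrg1 was, and their part in the difference was not tested. Without the Apoe-led SGC cluster, which carries neuron genes, the Nrg1 difference was 0.29, in nuclei of more than 2000 genes it was 0.036 and on thinning to 1000 UMIs 0.33, none of which passed. It did not pass by DESeq2 either (adjusted p = 0.212). In MSC the neuron markers summed to 1641, 1257 and 1136 CPM, highest in the adult library as Nrg3 was. In B lymphocyte-like nuclei the NMSC markers stood at 7393, 3110 and 3959 CPM, the MSC markers at 3654, 631 and 749 CPM and the neuron markers at 1655, 1289 and 673 CPM, with free RNA estimated at no more than 86.1%, 40.1% and 40.3% of the UMIs. The part of these in the Nrg3 differences was not tested. The B lymphocyte difference of Nrg3 passed in 2 of the 5 alternatives that changed these data or the fit, and not with the members kept in the clustering (log2 -0.93), with no filter on low counts (edgeR adjusted p = 0.0679) or by DESeq2 (adjusted p = 1.00).

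Within neuron subtypes, 13 of 50 member tests passed, 1 higher and 12 lower in aged libraries, where 7.04% of all gene tests passed. That share covers both directions and was not split by direction over subtypes. In neurons as 1 class, 1.84% of all genes were higher and 7.62% lower with age. The comparisons share their 3 libraries. Erbb4 was lower in 4 subtypes (log2 from -1.20 to -1.03), Erbb3 in 2 (Mrgprd -0.95, SE 0.31, and peptidergic -1.35, SE 0.39) and Egfr in 2 (Mrgprd -1.44, SE 0.40, and large-fiber -0.91, SE 0.33). All these receptor levels lay below those of free RNA, which were lower in the aged libraries for each of the 3 genes. With free RNA subtracted, the 2 of Egfr could not be tested, and the other 6 were no smaller in size, from -2.55 to -1.16 on the log2 scale, while the large-fiber difference of Erbb4 alone passed (log2 -1.45, edgeR adjusted p = 0.0375). By DESeq2 none of the 4 of Erbb3 and Egfr passed (adjusted p from 0.504 to 0.943), and of the 4 of Erbb4 the large-fiber one did. Of the alternatives that changed the data or the fit, Egfr passed in 1 of 7 in large-fiber and 5 of 6 in Mrgprd neurons, and Erbb3 in 4 of 7 in Mrgprd and 3 of 6 in peptidergic neurons. Erbb3 in Mrgprd neurons did not pass without the cluster of little Malat1 (edgeR adjusted p = 0.0900), which held 111 of 1035, 210 of 595 and 101 of 392 Mrgprd nuclei. Without aged replicate 1 or 2, Erbb3 in Mrgprd neurons stood at -1.71 or -0.52 and Egfr in large-fiber neurons at -1.71 or -0.52.

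Nrg3 was lower in aged large-fiber neurons (3862, 2395 and 2273 CPM; log2 -0.91, SE 0.14, edgeR adjusted p = 1.89e-09), A-delta peptidergic neurons (4759, 3145 and 3431 CPM; log2 -0.76, SE 0.12, edgeR adjusted p = 5.32e-03) and Sst and Nppb neurons (488, 81.7 and 28.5 CPM, on 520, 60 and 21 UMIs; log2 -3.29, SE 0.41, edgeR adjusted p = 1.01e-12). In each, both aged libraries lay below the adult one. The large-fiber difference passed in all 8 alternatives that gave a test. The cluster of little Malat1, where Nrg3 stood at 394, 192 and 199 CPM against 2695 CPM or more in the other 2 clusters, held 613 of 1529, 672 of 1054 and 232 of 381 large-fiber nuclei, and it also carried 3 peptidergic markers. Without it the Nrg3 difference was -0.73 and passed. The A-delta difference passed in all but thinning to 1000 UMIs (log2 -0.63, edgeR adjusted p = 0.448). The Sst and Nppb difference did not pass on thinning (log2 -1.44, edgeR adjusted p = 0.998) or by DESeq2 (adjusted p = 0.516). With free RNA subtracted, 174, 0 and 0 UMIs of Nrg3 remained in this subtype and the difference passed. Its SGC markers summed to 693, 377 and 170 CPM and its MSC markers to 410, 214 and 109 CPM, highest in the adult library as Nrg3 was, and their part was not tested. The Sst and Nppb class held 68, 58 and 35 nuclei with medians of 14571, 4849 and 8120 UMIs, and the value without either aged library ranged from -4.18 to -2.74. Over all neurons as 1 class, Nrg3 did not pass (log2 -0.51, SE 0.23).

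Nrg1 moved both ways among the subtypes. In Th low-threshold mechanoreceptors it stood at 287, 696 and 814 CPM (log2 1.25, SE 0.33, edgeR adjusted p = 0.0117). In large-fiber neurons it stood at 1781, 1216 and 1394 CPM (log2 -0.63, SE 0.14, edgeR adjusted p = 1.71e-04). The difference between these subtypes was not tested. In both, the adult value lay outside the aged pair, and each passed in 6 of 8 alternatives, the one without the clusters of little Malat1 included (log2 1.28 and -0.51). The Th difference did not pass on thinning (log2 1.04, edgeR adjusted p = 0.863) or with free RNA subtracted (log2 1.64, edgeR adjusted p = 0.816). The large-fiber difference did not pass with the members kept in the clustering (log2 -0.62, edgeR adjusted p = 0.115) or with free RNA subtracted (log2 -0.70, edgeR adjusted p = 0.0556). By cluster, the large-fiber levels were 3171, 2550 and 2739 CPM, 1266, 1142 and 1142 CPM, and, in the cluster of little Malat1, 322, 324 and 280 CPM. That last cluster made up 613 of 1529, 672 of 1054 and 232 of 381 large-fiber nuclei. The part of this mix of clusters in the difference was not tested. In neurons as 1 class Nrg1 was alike in the libraries at 1171, 1154 and 1199 CPM.

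Other genes of the pathway were taken as a list of 47: other EGF family ligands, proteases that release them, regulators of the receptors, and adaptors and effectors. Of 43 tested between classes, 14 were higher in neurons and 14 lower, where 31.9% and 28.1% of all genes were, and the median log2 difference was 0.10 against 0.03 over all genes. The 3 that differed most were Lrig3, a relative of the ErbB inhibitor Lrig1 (log2 -3.19, SE 0.30), the EGF-like transmembrane protein Tmeff2 (log2 2.86, SE 0.26), and the EGFR ligand Hbegf (log2 -2.54, SE 0.27). In SGC 10 were higher and 5 lower (background 22.2% and 11.4%), led by Cspg5, an EGF-like proteoglycan also called neuroglycan C (20.7, 47.3 and 31.4 CPM; log2 2.57, SE 0.21), then Adam19 (log2 -1.93, SE 0.25) and Lrig3 (log2 1.53, SE 0.21).

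In NMSC 9 were higher and 5 lower (background 10.6% and 6.26%). The EGFR and ErbB4 ligand Btc led there, with 0, 54.4 and 41.3 CPM (0, 48 and 18 UMIs), followed by Hbegf (59.8, 108 and 133 CPM; log2 2.86, SE 0.22) and Tmeff2 (log2 -2.01, SE 0.48). In MSC 11 were higher and 9 lower (background 17.3% and 15.6%), led by the protease gene Adam19 (log2 -2.38, SE 0.30), Hbegf (46.0, 87.1 and 77.4 CPM; log2 2.31, SE 0.20) and the EGFR ligand Tgfa (100.1, 102 and 128 CPM; log2 2.30, SE 0.20). In fibroblasts 12 were higher and 9 lower (background 17.9% and 13.7%), led by Tmeff2 (log2 2.79, SE 0.27), the EGFR feedback inhibitor Errfi1 (85.3, 95.6 and 75.7 CPM; log2 1.94, SE 0.20) and the adaptor Gab1 (784, 902 and 952 CPM; log2 1.85, SE 0.20). The median log2 difference of the list was 0.13 in SGC, -0.02 in NMSC, -0.01 in MSC and -0.01 in fibroblasts, against 0.11, -0.01, -0.02 and -0.05 over all genes.

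With age, 5 listed genes were higher and 1 lower in SGC (background 9.35% and 7.5%), 4 and 2 in MSC (3.18% and 5.56%), and 1 and 0 in neurons (1.84% and 7.62%; at an unadjusted p under 0.05, 0 were lower with edgeR and with DESeq2). The median log2 difference was 0.13 in SGC, 0.03 in MSC and 0.19 in neurons, against 0.00, 0.00 and 0.01 over all genes. Lrig1, which restrains ErbB receptors, was lower in aged SGC (56.0, 32.5 and 34.2 CPM; log2 -0.95, SE 0.21, edgeR adjusted p = 1.88e-04) and higher in aged MSC (49.0, 88.6 and 110 CPM; log2 0.88, SE 0.22, edgeR adjusted p = 9.83e-03). Tmeff2 was higher in aged SGC, at 31.1, 58.4 and 63.8 CPM (log2 0.77, SE 0.22). In aged MSC it was lower, at 120, 28.1 and 26.5 CPM (log2 -2.22, SE 0.22). Neurons held 485, 508 and 536 CPM of Tmeff2 and fibroblasts 580, 499 and 668 CPM. The 9 neuron markers summed to 1351, 2681 and 2128 CPM in SGC and to 1641, 1257 and 1136 CPM in MSC. They moved as Tmeff2 did in both, and their part in its differences was not tested. Cspg5 was higher in aged SGC (log2 0.76, SE 0.23) and Tmeff1 lower in aged MSC (log2 -2.01, SE 0.42). In neurons the 1 gene was Cblb, a ubiquitin ligase (105, 162 and 194 CPM; log2 0.64, SE 0.22, edgeR adjusted p = 0.0453). In NMSC, 3 of 37 listed genes were higher and 0 lower, where 7.86% of all gene tests over the classes passed. Btc was at least 7.82-fold higher in the pooled aged libraries than the 6.40 CPM that no UMI in the adult library allows (3 UMIs). The others were Adam19 (log2 1.46, SE 0.37, edgeR adjusted p = 2.31e-03) and Erbin (log2 1.37, SE 0.31, edgeR adjusted p = 5.34e-04). The 6 fibroblast markers in NMSC stood at 707, 1681 and 1663 CPM, higher in both aged libraries as these genes were, and their part in the differences was not tested.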

How the data were processed

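Nuclei of lumbar DRG were profiled in 1 adult and 2 aged libraries. The authors deposited matrices of raw UMI counts (genes by barcodes) made by Pipseeker, which aligned the reads and counted transcripts. The build is mm10 per the submitters' processing notes, and the annotation is not given in the sources used here. Counting is not stated to use strand. Gene positions are those of GENCODE M21 (GRCm38). A second row named Nrg1 was kept apart.

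Barcodes with more than 1000 genes were kept. Nuclei were normalized with SCTransform, integrated with RPCA and clustered (30 principal components, resolution 0.8) in Seurat 5.3.0 under R 4.3.3, with the 8 members left out of the 3000 variable features, of which 5 would have been. A cluster took a class name from 3 or more markers that were detected in 10% of its nuclei or more and stood over 2-fold above the median of clusters. This naming rule was written after the clusters had been seen. Clusters of mixed lineage or led by mitochondrial genes were left out (311, 295 and 181 nuclei). No doublet caller was run. Libraries shared 1, 1 and 0 barcodes in pairs.

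Counts were summed per library and class. The sums were fitted in edgeR 4.0.16 by quasi-likelihood (TMM, filterByExpr, prior count 0.125), with Benjamini-Hochberg adjustment over all genes tested and a threshold of 0.05. SE is the log2 difference over the square root of F. On simulated counts with 2-fold changes, the fits found 86.8% of changed genes between classes, 2.02% with age within SGC and 0% for the difference of age effects; with 4-fold changes they found 100% and 80.5%, and 56.4% for the difference of age effects. The simulation gave each gene 1 mean and a dispersion of 0.05, and changed only genes above the median total count. These shares therefore need not hold for the real counts. DESeq2 1.42.0 and the other settings are given with their effects at the end. The members and lists were chosen with earlier results of these data known. All members are named in each comparison. Of the other pathway genes, the 3 with the greatest log2 difference among those past the threshold are named between classes for neurons, SGC, NMSC, MSC and fibroblasts. With age they are named for SGC, MSC, NMSC and neurons. Those of the other classes, the glial pairs and the neuron subtypes are not named. The 3 most similar genes were taken among those of 10 CPM or more in some class. A count of 0 was taken to allow 3 UMIs, which covers counting error only.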

Additional observations from a re-analysis of the deposited data

Results flagged for a closer look

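The age difference of Erbb4 in MSC-like nuclei stood apart from those of the other classes, by 2.37 on the log2 scale in a test of the difference itself (edgeR, adjusted p = 0.0308). Those other classes include B and T lymphocytes, which held few UMIs of Erbb4. Taken class by class, Erbb4 was higher in aged MSC (log2 0.73) and lower in aged SGC (log2 -2.67), neurons (log2 -0.99) and myeloid-like nuclei (log2 -1.67). Nrg1 was higher in aged Th low-threshold neurons (log2 1.25) and lower in aged large-fiber neurons (log2 -0.63), in both aged libraries each time, and the difference between these subtypes was not tested. A second row of the matrices with the symbol Nrg1 (ENSMUSG00000118541), used in no comparison, held 3, 6 and 2 UMIs in the kept nuclei, of which 6 is above the 3 that a count of 0 allows. Groups of 1 and 2 libraries are too small for a search for outlying samples.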

How the results depend on the processing

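No paired analysis was possible because the adult and aged libraries come from different mice. The 1 replicate number that the groups share marks no pair. Of the member tests past the threshold, the 35 between classes were 23 with nuclei gated on markers and 20 with free RNA subtracted, and 25 to 34 when a library was left out. The 8 of glial pairs were 3 and 4 under the same settings (6 to 9 without a library), and the 19 between neuron subtypes ranged from 16 to 24 (14 to 22 without a library). Of 59 age tests in classes 7 passed, against 4 when gated, 3 of 33 with free RNA subtracted and 3 of 59 by DESeq2. The 13 age tests past the threshold in subtypes were 4 with nuclei thinned to 1000 UMIs, 4 with free RNA subtracted and 5 by DESeq2. Thinning and subtraction left fewer age tests in subtypes. The gate left fewer classes and pairs to test, so that its lower counts are not read as a loss of results. The 1 difference of age effects was 3 when thinned, 0 with free RNA subtracted (edgeR, 2 of 72 at an unadjusted p under 0.05; DESeq2 was not run for it) and 4 with no filter on low counts. With an aged library left out, no residual degrees of freedom remained for age, and values only were computed. The gate kept 223, 31 and 11 SGC, so that SGC, B and T lymphocytes and myeloid cells could not be fitted in it. Each class was then set against a mean of fewer classes, in which neurons and fibroblasts weigh more. Of the nuclei gated NMSC, 229 came from SGC-like clusters and 101 from the NMSC-like one. The part of these in the other changes under the gate was not tested. Directions reversed under the gate for Nrg3 (-1.35), Nrg1 (-1.55) and Nrg4 (-0.88) in endothelial cells, Egfr in MSC (-1.51), Nrg3 (0.40) and Nrg2 (0.070) in NMSC, and Nrg3 in NMSC against MSC (1.68). They reversed on thinning for the age differences of Nrg3 in fibroblasts (-0.997) and Egfr in large-fiber neurons (0.61). Leaving out the SGC-like cluster with neuron genes was chosen after seeing the data and gave 38, 7, 7 and 1. Depth limits what the low counts of Erbb2, Nrg4 and the lymphocytes can show.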
